A study of Mus musculus with 6 samples.

Results

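The Norrin receptor complex and the co-receptors for Wnt7 were examined in the neonatal mouse retina as a set of 7 genes, of 19057 named on the array: the ligand Ndp, the receptor Fzd4, the co-receptors Lrp5 and Lrp6, the tetraspanin Tspan12, and the Wnt7 co-receptors Adgra2 and Reck. All probes annotated to any of these symbols were taken, detected or not, which gave 15 of the 45281 probes on the array. Retinas came from mice labelled Lrp5-/- (strain B6.129P2-Lrp5tm1Dgen/J, a germline allele present in every cell) and from wild type (WT) C57BL/6J mice, both at postnatal day 8. Each group had 3 mice with 1 array each (Illumina Mouse-WG6 BeadChip), each taken by the study as a biological replicate. The WT mice are given as the inbred strain, not as littermates. The values are fluorescence signals normalized between arrays, in arbitrary units, so a probe was compared only with itself across the arrays.

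Norrin, the product of Ndp, is secreted by Müller glia and binds Fzd4 on endothelial cells, where Lrp5 or Lrp6 and the tetraspanin Tspan12 complete the complex and β-catenin is stabilised. Human mutations in NDP, FZD4, LRP5 or TSPAN12 leave the retina poorly vascularised, in Norrie disease and familial exudative vitreoretinopathy. In the brain, Wnt7a and Wnt7b reach the same β-catenin branch through Frizzled receptors with the help of the adhesion receptor Adgra2 (also named Gpr124) and of Reck, a membrane-anchored inhibitor of metalloproteinases.

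A probe was called detected on an array when its signal stood above that array's negative control beads at a detection p under 0.05, and expressed when this held on at least 3 of the 6 arrays. Of the 15 probes, 7 were expressed, covering 6 of the 7 genes. Both Reck probes and the single Tspan12 probe were detected on all 6 arrays, as was 1 of the 3 Adgra2 probes. Lrp6 and Fzd4 were each carried by 1 of 2 probes, detected on 5 arrays, and Lrp5 by 1 of 4 probes, detected on 4 arrays. The single Ndp probe was detected on 2 arrays and was not expressed by this rule. Across all genes, 20721 probes were expressed.

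**Figure D1:**
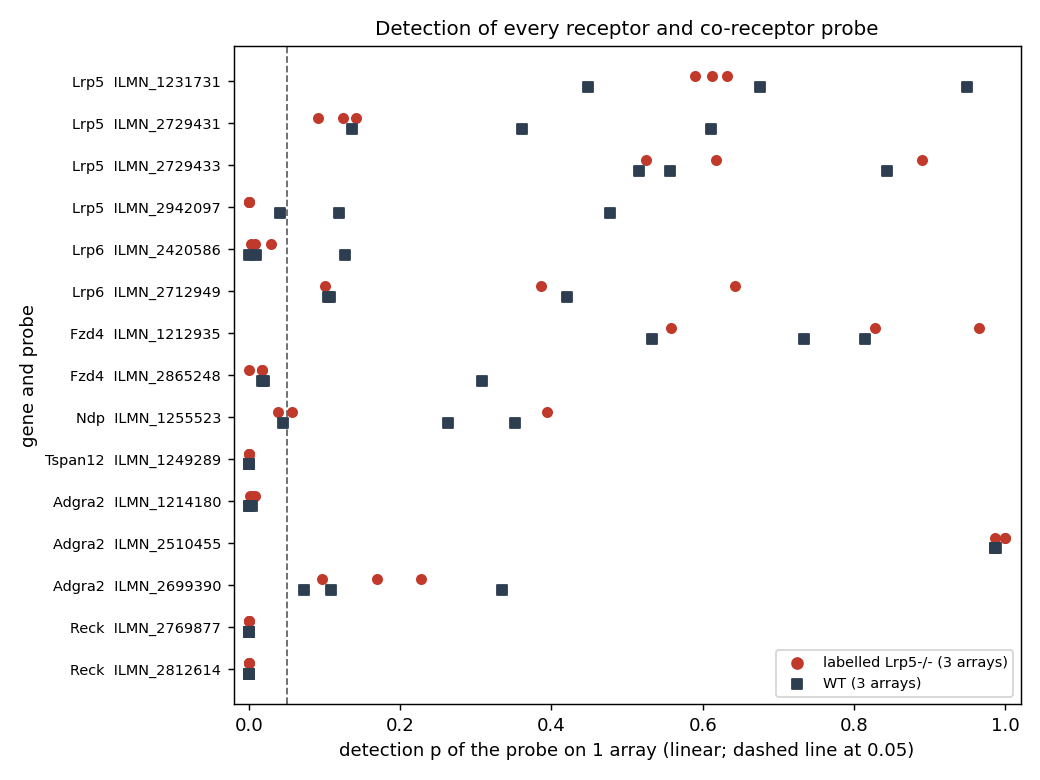
Detection p of the 15 probes (rows) on each of the 6 arrays, on a linear axis with the threshold of 0.05 dashed. Circles are retinas labelled Lrp5-/- and squares WT. Tspan12, both Reck probes and 1 Adgra2 probe lie left of the line on every array, whereas 8 probes lie right of it on at least 4 of the 6 arrays.

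One array stood apart. WT replicate 1 had the lowest mean signal before normalization (the other arrays stood at 303.8 to 430.7), and the dimmest probe detected on it stood at a normalized signal of 69.8, against 58.8 to 61.7 elsewhere. It also lay farthest from its group mean, with a residual SD of 0.17 on the log2 scale compared with 0.10 to 0.13. Of 14 neural retina markers with a probe, 12 were expressed, compared with 2 of 9 for lens and cornea. Over all expressed probes, 6 rose and 18 fell at an adjusted p under 0.05 (limma on log2 signals, Benjamini-Hochberg over the 20721 probes, two-sided).

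Lrp5, the targeted gene, was higher in the retinas labelled Lrp5-/- at its expressed probe, so these retinas are called by their label throughout. ILMN_2942097 read 99.2, 91.3 and 95.7 normalized units for replicates 1 to 3 with the Lrp5-/- label, whereas WT replicates 1 to 3 read 46.8, 59.5 and 56.1. The probe was detected on all 3 arrays labelled Lrp5-/- but on only 1 of 3 WT arrays, replicate 2, at a detection p of 0.0417. It would have met the expression rule through the arrays labelled Lrp5-/- alone. The groups did not overlap, with every labelled Lrp5-/- retina above every WT retina. The means were 95.4 ± 3.96 (SD, n = 3) and 54.1 ± 6.57 (SD, n = 3), a 1.77-fold difference (log2 0.82, SE 0.11, 95% interval 0.59 to 1.06, limma adjusted p = 0.0127). The WT end of this fold is near background. With each WT signal raised to the lowest detected signal of its array, the difference was 1.51-fold. Without WT replicate 1 the log2 difference was 0.72 (limma adjusted p = 0.00411). The call was lost without any one of the retinas labelled Lrp5-/- or without WT replicate 3, at log2 differences of 0.80 to 0.86 and limma adjusted p of 0.0571 to 0.121. It was also lost with median scaling of the arrays (log2 0.81, limma adjusted p = 0.978), without normalization, with 50 units added to each signal and with the methods' t-test, and the probe drops out where detection on all 6 arrays is required. Background fluorescence is part of these numbers. Above the median of the undetected probes of the same array, every retina labelled Lrp5-/- held at least 42.6 units, and the WT retinas -0.1, 11.1 and 8.7. After background correction and quantile normalization the difference was 2.56-fold. Which exon the probe lies in relative to the targeted exons was not analysed here, so the probe is no check of the labels.

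The other 3 Lrp5 probes were below detection on all 6 arrays, with detection p from 0.0919 upward. ILMN_2729431 gave 57.6, 55.9 and 55.4 in the retinas labelled Lrp5-/- against 42.8, 49.8 and 55.2 in WT. These values did not overlap, though the nearest pair, 55.4 and 55.2, were almost equal. The remaining pair, ILMN_1231731 and ILMN_2729433, ranged from 38.4 to 48.7 with overlapping groups. No fold is given where both groups are below background.

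Lrp5 was the only one of the 7 expressed probes to be called. Of all expressed probes, 0.0290% were called higher and 0.0869% lower, while 1 of the 7 was called higher and 0 lower. Over all probes the 3 retinas labelled Lrp5-/- lay entirely above the WT retinas for 5.74% of probes and entirely below for 4.96%. Of the 7, this held for Lrp5 alone, in the upward direction. The other 6 probes gave log2 differences between -0.19 and 0.18, with 0 of 6 at an unadjusted p under 0.05 by limma (4.855% of all expressed probes) and 0 of 6 by the methods' t-test on the same values. Their median was -0.04, and that of all expressed probes 0.0001. With 3 retinas a group, a call required a difference of 1.54- to 1.63-fold at the spread of these probes. An exact permutation test of a single probe could not have gone below p = 0.1 in this design.

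**Figure D2:**
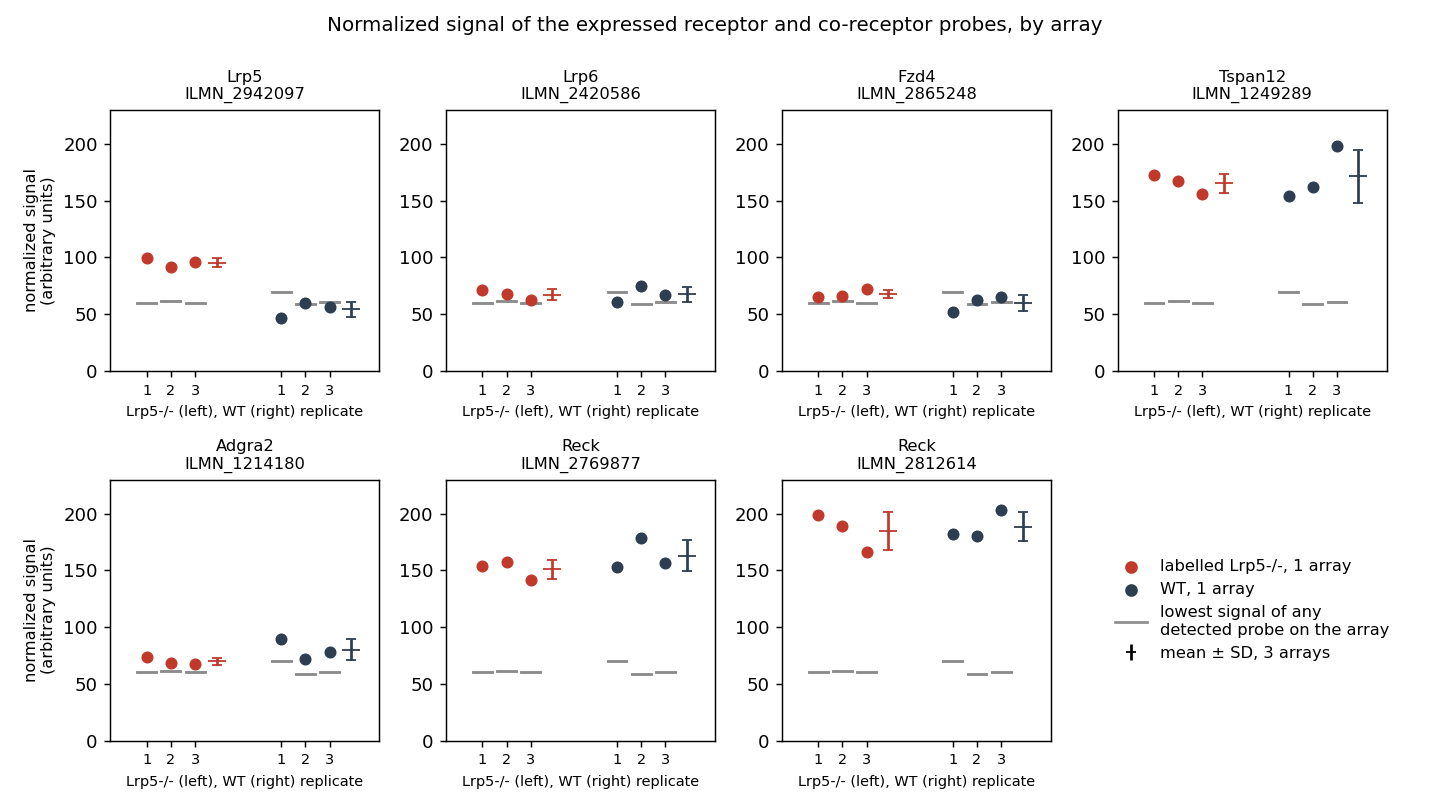
Normalized signal (arbitrary units, axis from 0) of the 7 expressed probes on each array, with mean ± SD over 3 retinas at the right of each group. Grey bars give the lowest signal of any detected probe on that array. Lrp5 sits at 91.3 to 99.2 in the retinas labelled Lrp5-/- and at 46.8 to 59.5 in WT, while the groups overlap in every other panel; levels are not comparable between panels.

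The ligand Norrin was at the limit of detection. The Ndp probe gave 50.5, 62.5 and 59.4 in the retinas labelled Lrp5-/- against 50.6, 59.1 and 51.5 in WT. It was detected on 1 array of each group, with a detection p-value of 0.0385 in labelled Lrp5-/- replicate 2 and of 0.0449 in WT replicate 2. The groups overlapped over nearly their whole range, and a change in Ndp was not detectable at this signal. Müller glia, the source of Norrin, were represented by all 12 of their markers with a probe, with a median log2 difference of -0.01. None of the 12 was called by limma, and 2 had an unadjusted p under 0.05, the transcription factor Hes1 (log2 -0.25) and glutamine synthetase Glul (log2 -0.34).

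The Wnt7 ligands were similarly dim. The Wnt7a probe was undetected on all 6 arrays. Wnt7b had 1 expressed probe of 2, which gave 58.3, 62.2 and 62.1 in the retinas labelled Lrp5-/- against 75.9, 57.1 and 61.9 in WT (log2 -0.08, SE 0.11, limma adjusted p = 0.989). WT replicate 1 was the highest and WT replicate 2 the lowest of the 6 values. Without WT replicate 1 the log2 difference was 0.03. Signals this dim limit what the array can show for these ligands. By RT-qPCR at the same age, the study reported Wnt5a, Wnt7b and Wnt10b as lower and Norrin as slightly higher in Lrp5-/- retinas.

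Fzd4, the Frizzled that binds Norrin with high affinity, gave 65.1, 66.2 and 72.1 in the retinas labelled Lrp5-/- against 52.1, 62.5 and 65.3 in WT at ILMN_2865248. WT replicate 1 was the lowest and the only array on which the probe was not detected, and WT replicate 3 lay just above labelled Lrp5-/- replicate 1. The means were 67.8 ± 3.76 (SD, n = 3) and 60.0 ± 6.96 (SD, n = 3), a log2 difference of 0.18 (95% interval -0.05 to 0.41, limma adjusted p = 0.987). Without WT replicate 1 it was 0.08. The interval holds changes of the whole signal, background included, from 0.966- to 1.33-fold. The second Fzd4 probe was undetected on every array. For a single transcript in whole retina, a change in the number of cells carrying it and one in RNA per cell cannot be told apart.

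Lrp6, the paralog that shares the co-receptor role with Lrp5, had the smallest difference of the 7 probes. ILMN_2420586 gave 71.4, 67.9 and 62.4 in the retinas labelled Lrp5-/- against 60.5, 74.5 and 67.1 in WT. Both the lowest and the highest value were WT, so the labelled Lrp5-/- retinas lay inside the WT range. The means were 67.2 ± 4.54 (SD, n = 3) and 67.4 ± 7.004 (SD, n = 3), and the log2 difference was 0.00 with a 95% interval of -0.23 to 0.23 (limma adjusted p = 1.00). A rise or fall of the whole signal by more than 1.17-fold lies outside this interval. Most of that signal was background. Only 18.7 units in the retinas labelled Lrp5-/- and 19.8 in WT stood above the median of the undetected probes. The limit on Lrp6 RNA itself is therefore wider. Only the expressed probe could be compared, since ILMN_2712949 was undetected on all arrays at 46.0 to 56.7.

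Side by side, the 95% intervals of the log2 difference were 0.59 to 1.06 for Lrp5 and -0.23 to 0.23 for Lrp6. Lrp5 is the targeted gene and its WT signals were near background, so the 2 differences are not like measures. The intervals do not overlap. The difference between the 2 probes was not itself tested.

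Tspan12, which strengthens the response of Fzd4 to Norrin but not to Wnts, was detected on all arrays. Its probe gave 172.7, 167.1 and 156.0 in the retinas labelled Lrp5-/- against 154.5, 162.2 and 197.8 in WT. WT held both the lowest value (replicate 1) and the highest (replicate 3). The means of 165.3 ± 8.50 (SD, n = 3) and 171.5 ± 23.1 (SD, n = 3) differed by log2 -0.05 (95% interval -0.28 to 0.19, limma adjusted p = 0.991). Reductions of the whole signal, background included, by more than 1.22-fold lie outside the interval.

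Adgra2, the adhesion receptor that couples Wnt7 to Frizzled, had the lowest log2 difference of the set. ILMN_1214180 gave 73.6, 68.4 and 67.7 in the retinas labelled Lrp5-/- against 89.9, 71.7 and 78.3 in WT. WT replicate 1 was the highest, and WT replicate 2 fell below labelled Lrp5-/- replicate 1. The means were 69.9 ± 3.22 (SD, n = 3) and 80.0 ± 9.21 (SD, n = 3), a log2 difference of -0.19 (95% interval -0.41 to 0.04, limma unadjusted p = 0.0931, adjusted p = 0.987). Without WT replicate 1 it was -0.10. ILMN_2510455 and ILMN_2699390 were undetected on every array. The other group A adhesion receptors did not pass the test either, at log2 -0.15 for Adgra3 and 0.04 for Adgra1.

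Reck, which binds Wnt7 and hands it on with Adgra2, was measured by both of its probes on all arrays, both annotated to the same mRNA. ILMN_2769877 gave 153.6, 157.8 and 141.2 in the retinas labelled Lrp5-/- against 153.2, 178.7 and 156.9 in WT. ILMN_2812614 gave 198.5, 189.4 and 165.9 against 182.3, 180.2 and 203.0. Labelled Lrp5-/- replicate 3 was the lowest array at both probes, whereas the highest array was WT replicate 2 at the first and WT replicate 3 at the second. The log2 differences were -0.11 (95% interval -0.32 to 0.10) and -0.03 (95% interval -0.25 to 0.19), with limma adjusted p of 0.987 and 0.993. Of the metalloproteinases that Reck inhibits, Mmp2, Mmp9 and Mmp14 were expressed, with log2 differences of 0.01 to 0.05.

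**Figure D3:**
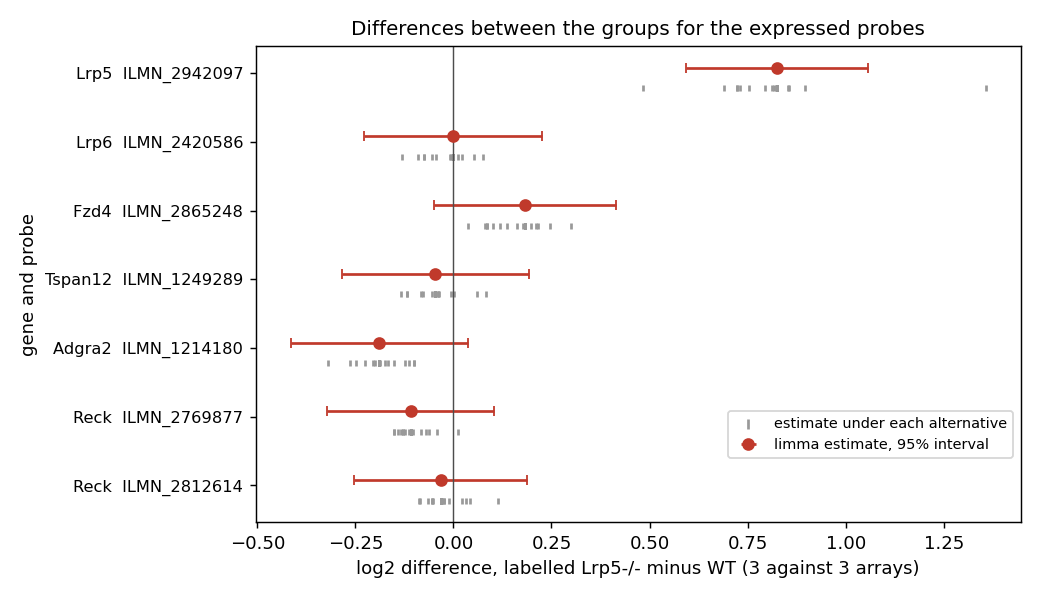
Log2 difference, labelled Lrp5-/- minus WT, for the 7 expressed probes. Points and bars are limma estimates with 95% intervals from 3 against 3 arrays, and grey ticks are the estimates under each alternative processing. The interval excludes 0 for Lrp5 alone, and the ticks lie on both sides of 0 for Lrp6, Tspan12 and both Reck probes.

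The spread between retinas differed among the probes. The coefficient of variation was 4.15% to 9.11% in the retinas labelled Lrp5-/- and 6.68% to 13.5% in WT, and it was larger in WT for every probe but Reck ILMN_2812614. Without WT replicate 1 the WT value went from 12.1% to 4.16% for Lrp5 and from 11.6% to 3.10% for Fzd4, the latter below the 5.55% of the retinas labelled Lrp5-/-. Over the 6 arrays, Fzd4 and Adgra2 ran in opposite directions (r = -0.89 on log2 signals, and -0.82 after each group's mean was taken off). WT replicate 1, the dim array, was the lowest for Fzd4 and the highest for Adgra2, and over the other 5 arrays r was -0.53. Tspan12 and Reck ILMN_2812614 had an r of 0.82 (0.86 over those 5 arrays), and the 2 Reck probes an r of 0.26 (0.24). These correlations describe 6 arrays, which share a normalization, and carry no test.

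Genes with the closest pattern to each receptor were sought among 14768 probes detected on all 6 arrays. For Lrp5 these were Nat8f4 (r = 0.99), Ap1g1 (r = 0.99) and Keap1 (r = 0.99), whose own log2 differences were 0.13, 0.23 and 0.29. For Fzd4 they were Tbc1d7, Lpin1 and Pptc7, and for Lrp6 4930402H24Rik, Trappc12 and Prps1. Adgra2 was followed most closely by Crtap, Nt5m and the astrocyte filament gene Gfap, Tspan12 by Galnt10, Ctss and Edil3, and Reck by 2700081O15Rik, A430005L14Rik and Pla2g5. Between the groups, the limma adjusted p of these 18 genes ran from 0.734 to 0.999. With 6 arrays such likeness is common, and 20 to 76 probes per receptor exceeded an r of 0.95.

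No other component of the pathway at the cell surface was called. Of the other Frizzleds, 7 of 9 were expressed with 0 called in either direction and 0 at an unadjusted p under 0.05, and a median log2 difference of -0.04. The smallest p belonged to Fzd10 (log2 -0.26), Fzd2 (0.22) and Fzd6 (-0.15). Among the secreted Wnts outside the Wnt7 pair, 2 of 17 were expressed, Wnt5a (log2 0.00) and Wnt5b (log2 -0.19). Of 11 expressed relatives in the LDL receptor family none was called by limma, with 0 at an unadjusted p under 0.05, the smallest p being those of Lrp2 (log2 -0.30), Lrp1b (0.14) and Lrp10 (-0.15). Of 20 expressed tetraspanins other than Tspan12 none was called, and only Cd82 (log2 -0.27) had an unadjusted p under 0.05.

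Downstream of the receptors, 23 of 29 genes of cytoplasmic and nuclear transduction were expressed, with 0 called and 0 at an unadjusted p under 0.05 (median log2 -0.01). Their smallest p were those of the transcription factor Tcf7l1 (log2 -0.21), Apc2 (0.25) and the kinase Csnk1e (-0.16). Of 13 expressed extracellular modulators 0 were called and 3 had an unadjusted p under 0.05. These were Apcdd1 (log2 -0.31), which binds Wnts and Lrp5 at the membrane, Wls (-0.26), which carries Wnts to the cell surface, and Notum, an enzyme that removes the lipid from Wnts. Notum was not well above background in the retinas labelled Lrp5-/- (56.2, against 68.9 in WT) and met the expression rule through the WT arrays alone. With its labelled Lrp5-/- signals raised to the lowest detected signal of each array, the difference was 1.13-fold. The measured signals gave a limma adjusted p of 0.816, so no minimum decrease is given. Among general β-catenin target genes, 8 of 15 were expressed, and again 0 were called. At an unadjusted p under 0.05 by limma there were 3 lower and 0 higher, compared with 326 lower and 231 higher of all 11097 genes. They were Tnfrsf19 and, already counted as modulators, Apcdd1 and Notum. The median log2 difference of the 8 target genes was -0.19, compared with -0.01 over all 11097 genes with an expressed probe. Of the 8, 7 lay below 0, as did 5876 of the 11097. Apcdd1, Axin2 and Tnfrsf19 are also in the endothelial list below, and the study had reported Apcdd1 as lower from these arrays. This count and median are therefore not free of that earlier selection. Tnfrsf19 was dim and undetected in labelled Lrp5-/- replicate 2. Apcdd1 had the lowest log2 difference of the 8: 241.6, 249.7 and 241.2 in the retinas labelled Lrp5-/- against 293.7, 291.9 and 324.6 in WT, without overlap but with a limma adjusted p of 0.630.

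Endothelial genes that are known to move when Norrin or Wnt7 signaling is lost did pass the test in part. Of 22 listed, 12 were expressed, 4 fell and 1 rose, compared with 16 lower and 5 higher of all 11097 genes. The list includes genes picked from these same arrays, so its direction is not independent evidence. The tight junction gene Cldn5 fell by 3.16 on the log2 scale, the amino acid transporter Slc38a5 fell by 2.81 and the lipid transporter Mfsd2a fell by 1.71. Slc38a5 was near background in the retinas labelled Lrp5-/- (62.9, 55.0 and 63.9) and undetected in their replicate 2. Plvap, a component of endothelial fenestrae, rose (log2 0.83). The transcription factor Foxq1 was not well above background in any retina labelled Lrp5-/- (mean signal 47.5, against 115.7 in WT). Foxq1 met the expression rule through the WT arrays alone. Taking the lowest detected signal of each array as the floor, its mean was at least 1.90-fold lower, a bound that leaves out the spread between retinas. The measured signals gave a limma adjusted p of 0.000136. The 7 others, such as Sox18 (log2 -0.46, limma adjusted p = 0.155) and Axin2 (log2 -0.20), were not called.

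General endothelial markers were lower in summed signal in the retinas labelled Lrp5-/-, and their part in the receptor values was not tested. Of 20 markers 16 were expressed (Tie1, Erg, Cd34 and Adgrf5 were not), and 15 of these 16 lay below 0 with a median log2 difference of -0.56. Among these, Vwf was undetected in every retina labelled Lrp5-/- and met the expression rule through the WT arrays alone. It is kept in the counts, median and sums of this list. Vwf, Cd93, Esam, Tek, Icam2, Ramp2, Egfl7 and Adgrl4 (named Eltd1 there) had been reported as lower by the study from these arrays. The counts, median and sums of this marker list are therefore not free of that earlier selection. At 1 probe per gene, only Adgrl4 (log2 -1.16) and Cd93 (-0.90) were called lower, and 0 higher, compared with 16 lower and 5 higher of all 11097 genes. Over all 19 expressed probes of the list, 3 were called lower and 0 higher. At an unadjusted p under 0.05 there were 12 genes lower and 1 higher, compared with 326 lower and 231 higher of all 11097 genes. The summed signal of the 16, at 1 probe per gene, was 2349 to 2700 in the retinas labelled Lrp5-/- and 3287 to 4137 in WT, without overlap. Beside this median, Fzd4 stood at 0.18, Tspan12 at -0.05, Adgra2 at -0.19 and Reck at -0.11 and -0.03, and Lrp5 at 0.82. Astrocyte markers, 3 of 5 expressed, had a median of -0.12 and a summed signal of 587.5 to 663.3 against 708.5 to 796.1 in WT, also without overlap. Most of this sum was Pdgfra, at 426.4 to 490.6 in the retinas labelled Lrp5-/- against 534.7 to 610.1 in WT. Gfap overlapped between the groups, and Aldh1l1 had a log2 difference of 0.03. Pigment epithelium markers, 6 of 12 expressed and 5 of these below 0, had a median of -0.47 and overlapping sums of 1678 to 3535 and 1624 to 4653. None of these genes was called by limma, and 1 of them, an astrocyte marker, had an unadjusted p under 0.05. The part of both lists in the receptor values was not tested. Mural cell markers, 6 of 11 expressed, had a median of -0.10 and 0 called, with 1 lower and 1 higher at an unadjusted p under 0.05.

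**Figure D4:**
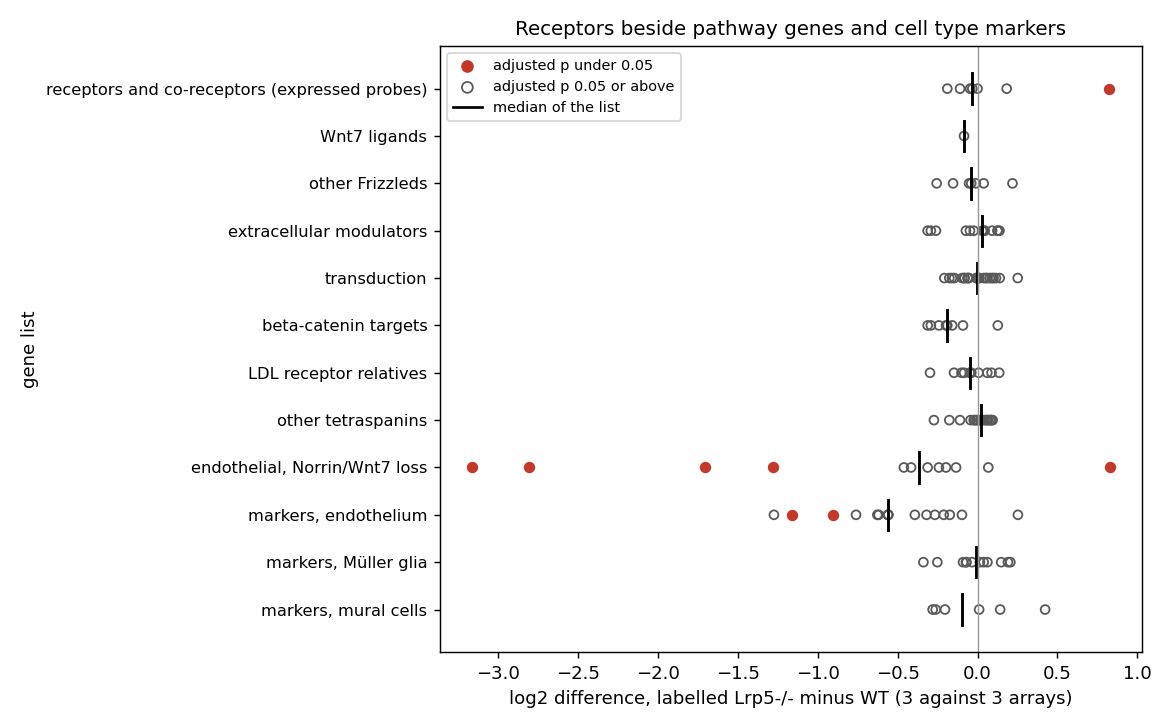
Log2 difference, labelled Lrp5-/- minus WT, for the 7 expressed receptor probes and, below, 1 probe per expressed gene of each list. Filled points have a limma adjusted p under 0.05, open points do not, and the black bar is the median of the list, with undetected values such as those of Foxq1 at their measured signal. Receptors other than Lrp5 lie between -0.19 and 0.18, while endothelial markers have a median of -0.56. Some of these markers had been reported as lower by the study from these arrays.

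The retinas labelled Lrp5-/- came from a strain with a targeted Lrp5 allele, and the WT mice were C57BL/6J. The genes around Lrp5 were therefore also described. Within 10 Mb on either side in the RefSeq gene table, 188 of 548 genes had an expressed probe, 274 probes in all. None was called by limma, 8 of the 274 had an unadjusted p under 0.05 (4.855% of all expressed probes did), and the median log2 difference of the genes was -0.01. The nearest expressed neighbour, Ppp6r3, had a log2 difference of 0.05.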

How the data were processed

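RNA from whole retina (Lrp5-/- and WT, 3 mice each) was converted to biotinylated cRNA and hybridised to 1 array per mouse. The deposited signal intensities had been normalized by the authors in Bead Studio with a rank invariant algorithm, and non-normalized intensities were deposited beside them. The detection p-values deposited with the intensities compare each probe with negative control beads. Undetected probes had a median normalized signal of 46.9 to 49.2 per array, so folds of dim probes are compressed. Gene symbols came from the platform annotation, where 34885 of 45281 probes had 1 symbol, 18 had several and 10378 were unnamed. Of those with 1 symbol, 34807 matched the RefSeq gene table (names and neighbourhood only).

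Here normalized intensities were set to a floor of 16 (1 value was below it) and taken as log2. Probes with a detection p under 0.05 on at least 3 of 6 arrays, 20721 in all, were fitted by lmFit and eBayes (limma 3.58.1, run under R 4.3.3, group as the only term), with two-sided p-values adjusted by Benjamini-Hochberg over all of them. The SAM test of the methods, which regroups the samples, was not run. The t-test in the alternatives is called the methods' t-test. The fit was tested on simulated data.

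The 7 genes, the gene lists and the markers were chosen with earlier results of these data known. Named genes were every member, list genes past an adjusted p of 0.05 and otherwise up to 3 per list with the smallest p, and the 3 genes closest in pattern to each member, for which the brightest expressed probe of a gene stood. Sox18 and Axin2 were named after their values were seen. Of the other marker lists, those not described above were microglia with 8 of 10 expressed and blood with 3 of 5, with 0 called by limma and 0 at an unadjusted p under 0.05 in each, whereas the neural retina list had 1 gene lower (Arr3, log2 -0.64).

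Alternatives were other normalizations, floors, filters and tests, and leaving out each array. The number of arrays limits the precision. Probe and protein sequences were not used here.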

Additional observations from a re-analysis of the deposited data

How the results depend on the processing

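Of 23 alternatives, 2 were chosen after seeing the data, namely median scaling over the expressed probes and leaving out WT replicate 1 with the filter recomputed. The floor on WT signals of Lrp5 and the spreads and correlations without WT replicate 1 were also added then. The Lrp5 log2 difference stayed positive wherever the probe was tested (0.48 to 1.36), and it kept its call in 12 of 22 alternatives. The call was lost, leaving 0 of the 7 receptor probes called, with median scaling (0.81, adjusted p = 0.978, a scaling that moved the median of all probes by 0.12), no normalization (0.73, adjusted p = 1), 50 added to each signal (0.48, adjusted p = 0.0857), the methods' t-test (0.82, adjusted p = 0.5501) and median scaling over the expressed probes (0.69, adjusted p = 0.243). With the replicate number as a block, it was 0.82 (adjusted p = 0.0663) and 0 of the 7 receptor probes were called. The numbers did not pair the retinas, since same-numbered retinas deviated with correlations of -0.28 to -0.15. With detection required on all 6 arrays Lrp5 was not tested and 0 receptor probes were called. Leaving out each array in turn gave 0 to 1 called receptor probes and 0.72 to 0.90 for Lrp5.

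Differences near 0 changed sign without any call. Lrp6 was -0.0073 with median scaling, -0.089 without normalization, -0.0007 with 50 added, -0.053 with array weights, -0.075 without WT replicate 1 with the filter recomputed and -0.13 with median scaling over the expressed probes (-0.075 to 0.075 leaving out each array). Tspan12 was 0.084 with median scaling and 0.0022 without normalization (-0.12 to 0.061). Reck ILMN_2769877 was 0.011 with median scaling, and ILMN_2812614 was 0.11 and 0.031 with median scaling and without normalization (-0.087 to 0.043). Fzd4 (0.04 to 0.30) and Adgra2 (-0.32 to -0.10) kept their direction in all alternatives that tested them. The cause of these shifts was not tested. Over all probes, the 18 lower and 6 higher calls became 0 and 0 with median scaling and with the methods' t-test, 2 and 0 without normalization, 9 and 2 with 50 added, 11 and 2 with the block, 9 and 1 with median scaling over the expressed probes, 74 and 24 with array weights and 62 and 23 without WT replicate 1. Leaving out any other array gave 9 to 10 lower and 1 to 3 higher calls. A block for the slide was not run, as no slide is named. Signals of Lrp5, Lrp6, Fzd4 and Ndp close to the negative controls limit what can be seen, since background compresses their folds.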
